A study of Mus musculus with 12 samples.

Results

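The genes of the mouse mitochondrial genome were read out in sequencing of total RNA from the olfactory mucosa. They were taken as every gene of the deposited table whose symbol starts with mt-, which gave 17 of 46297 gene rows: 13 mRNAs, 2 rRNAs and 2 tRNAs. The remaining 20 of the 22 annotated mitochondrial tRNA genes were not analysed here. The study compared 6 wildtype mice (WT1 to WT6) with 6 mice carrying a deletion of enhancer A (eA), a regulatory element on chromosome 7 that the series title assigns to class I odorant receptors (DEL1 to DEL6). All were males at postnatal day 30 with the strain label 129S6;C57BL/6J, and the labels do not state whether the deletion was on 1 or both chromosomes. Each sample, taken here as 1 animal, gave 1 library, made from RNA depleted of ribosomal RNA with a stranded kit. The question asked of these genes is whether loss of a nuclear receptor enhancer came with any difference in mitochondrial RNA, and how the classes of mitochondrial RNA compared with each other.

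Mitochondrial DNA is a small circle carried in many copies per cell. It encodes core subunits of respiratory complexes I, III and IV and of ATP synthase, as well as the rRNAs and tRNAs with which the organelle makes those proteins. Both strands are transcribed as long precursors, which are cut mostly at the tRNAs that lie between the other genes, so neighbouring genes share a precursor while their final levels depend on how stable each RNA is. Every other protein of the organelle, including the remaining respiratory subunits, is encoded in the nucleus. Pieces of mitochondrial DNA have also been inserted into nuclear chromosomes during evolution, and such nuclear copies can be nearly identical to the original.

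The tRNAs measured here were those for proline and cysteine, both encoded on the minus strand of the mitochondrial chromosome. Their sequences, from GENCODE M21 transcripts on GRCm38, are shown with the anticodon in capitals because these are the only mitochondrial tRNAs with values. mt-Tp lies at chrM:15356-15422 and mt-Tc at chrM:5192-5257.
mt-Tp: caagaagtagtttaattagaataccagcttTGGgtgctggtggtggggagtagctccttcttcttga
mt-Tc: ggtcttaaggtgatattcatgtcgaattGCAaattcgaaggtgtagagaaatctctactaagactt

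Several mitochondrial mRNA genes have annotated nuclear copies, and sequences of 3 gene pairs are shown because the levels reported below divide along them. mt-Co2, subunit 2 of cytochrome c oxidase, starts at chrM:7013-7092 on the plus strand. Its copy on chromosome 1, the unprocessed pseudogene Gm28661, holds the same 80 bases at chr1:24615486-24615565 on the minus strand, and the pair has no difference over 681 of the 684 bases of mt-Co2.
mt-Co2: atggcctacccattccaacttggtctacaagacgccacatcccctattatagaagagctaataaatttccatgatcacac
Gm28661: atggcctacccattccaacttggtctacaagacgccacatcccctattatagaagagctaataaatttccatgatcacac
mt-Nd3, a complex I subunit, starts at chrM:9459-9500 on the plus strand and Gm28438 at chr1:24613078-24613119 on the minus strand. Over 345 aligned bases they differ at 1 base, in capitals, which is T3C counted from the first base of the gene.
mt-Nd3: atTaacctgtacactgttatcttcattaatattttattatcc
Gm28438: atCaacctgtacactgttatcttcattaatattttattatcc
mt-Cytb, the cytochrome b subunit of complex III, is the contrasting case. Bases chrM:14146-14225 on the plus strand are set beside Gm11410 at chr4:80003990-80004069 on the plus strand, with the 5 differences (G14A, C24T, C61T, T66C and C78T, counted from the first base of mt-Cytb) in capitals. This pair is 92.9% identical over 1142 bases.
mt-Cytb: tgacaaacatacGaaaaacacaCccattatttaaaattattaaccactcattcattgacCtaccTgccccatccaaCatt
Gm11410: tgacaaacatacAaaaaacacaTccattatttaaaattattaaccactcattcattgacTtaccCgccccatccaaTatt

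Libraries held 13011763 to 23039733 reads on annotated genes, with 28832 to 42218 genes detected. The repeat-like transcript Gm10800 took over 1% of reads in 4 libraries, namely WT2, WT3, DEL3 and DEL6 (2.78% to 7.80%), and at most 0.885% in each of the others. Each mitochondrial difference between genotypes is also given without these 4 libraries. The tissue label was compared with Omp, the olfactory marker protein of mature sensory neurons. It averaged 60400 ± 6696 normalised counts in wildtype (SD, n = 6) and 63115 ± 5927 in deletion mice (n = 6). No marker of the cell types examined was at 0 in all libraries. That also held for markers of skeletal muscle, so it cannot test the tissue label.

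Mitochondrial RNA made up about 1 read in 20 in both genotypes. The share was 3.99% at the lowest, 4.79% at the median and 5.35% at the highest in the wildtype libraries. In the deletion libraries it was 3.96%, 4.75% and 6.66%. Only DEL4, at 6.66%, and DEL2, at 5.46%, lay above the wildtype range, and DEL5, at 3.96%, lay just under it, so that the groups overlapped almost throughout. In bulk tissue, fewer cells of a type and less RNA per cell cannot be told apart, and a share of reads cannot separate these either.

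The rRNA class carried most of this signal although the libraries were depleted of rRNA. The summed level of the 2 mitochondrial rRNAs ran from 496299 to 712040 normalised counts in wildtype libraries, with a median of 578492, and from 496083 to 869276 in deletion libraries, with a median of 591846. The 13 mRNAs together ran from 168728 to 267991 in wildtype (median 239078) and from 175604 to 293731 in deletion libraries (median 225859). The 2 tRNAs together, with genes of 66 and 67 bases, reached only 20.2 to 49.8 in wildtype and 11.7 to 60.5 in deletion libraries. None of these sums is scaled by gene length. Thus the mRNA sum was higher at the median in wildtype and the rRNA sum higher in deletion libraries, with overlapping ranges in each class. On the log2 scale the deletion mean differed from the wildtype mean by 0.057 for the rRNA sum, by -0.035 for the mRNA sum and by 0.13 for the tRNA sum. The SD between libraries of a genotype was 0.21 in wildtype and 0.31 in deletion for rRNA, 0.24 and 0.29 for mRNA, and 0.57 and 0.93 for tRNA, so each difference was smaller than the spread between replicates. Without the 4 libraries rich in Gm10800 the differences were 0.097, 0.033 and 0.13, the mRNA sum turning positive. rRNA exceeded mRNA 2.06- to 3.08-fold in wildtype and 2.32- to 2.96-fold in deletion libraries.

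**Figure D1:**
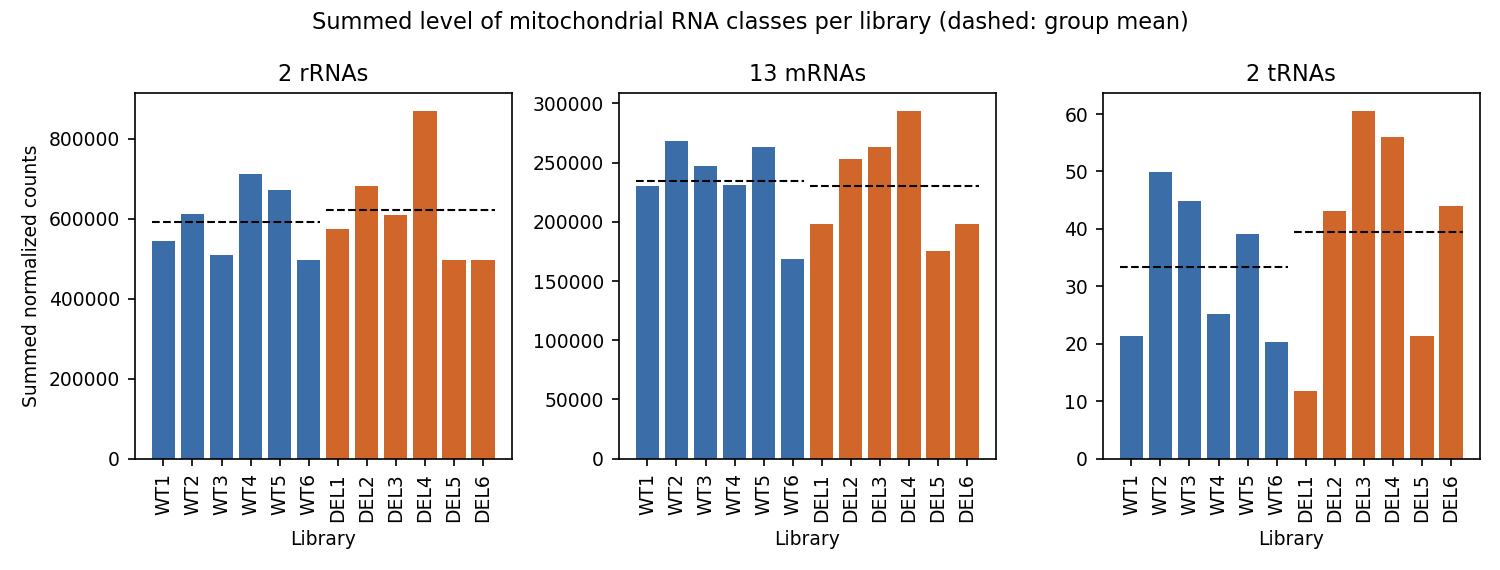
Summed normalised counts of the mitochondrial rRNAs (2 genes), mRNAs (13 genes) and tRNAs (2 genes) in each of the 12 libraries, with bars from 0 and a dashed line at each group mean; the vertical scale differs between panels. The rRNA bars of the deletion libraries run from 496083 to 869276, with DEL4 highest, and enclose the wildtype range.

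mt-Rnr2, the rRNA of the large mitochondrial ribosomal subunit, was the most abundant mitochondrial RNA in these libraries. It held 67.3% of all mitochondrial signal and between 2.66% and 3.74% of a wildtype library's reads. Its lowest, median and highest normalised counts were 460476, 540177 and 661554 in wildtype and 459931, 549001 and 809079 in deletion libraries. The deletion range enclosed the wildtype range, with DEL4 above every wildtype library. The difference was 0.054 ± 0.21 on the log2(value + 1) scale (SE; 95% interval -0.38 to 0.49; limma, Benjamini-Hochberg adjusted p = 0.960, 6 against 6 libraries).

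mt-Rnr1, the rRNA of the small subunit, is encoded upstream of mt-Rnr2 and had lower levels. Its normalised counts were 34960, 37934 and 50486 in wildtype and 30944, 42845 and 60198 in deletion libraries at the lowest, median and highest. The groups overlapped, with DEL6 lowest and DEL4 highest of all 12. The log2 difference was 0.095 ± 0.14 (95% interval -0.20 to 0.39; limma, adjusted p = 0.888). Per kb of gene, mt-Rnr2 averaged 8.23 times mt-Rnr1. The ratio of their counts had a median of 13.4 in wildtype and 13.3 in deletion libraries. Whether rRNA depletion acted equally on both was not tested. Rn7sk, an abundant nuclear non-coding RNA that restrains transcription elongation, also ranged widely between libraries (238732 to 517760 in wildtype and 206195 to 558490 in deletion libraries).

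The mRNAs differed from each other by orders of magnitude, and their levels fell into 2 ranges with nothing between. Of the 13, 7 averaged more than 1000 normalised counts and 6 averaged fewer than 250. Those 6 (mt-Co2, mt-Atp8, mt-Atp6, mt-Co3, mt-Nd3 and mt-Nd4l) were consecutive mRNA genes, from position 7013 to 10173 of the mitochondrial genome. Together they gave 5391 reads over 12 libraries and 0.189% of the mitochondrial mRNA signal, whereas mt-Co1, the gene just upstream, gave 1839715 reads.

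**Figure D2:**
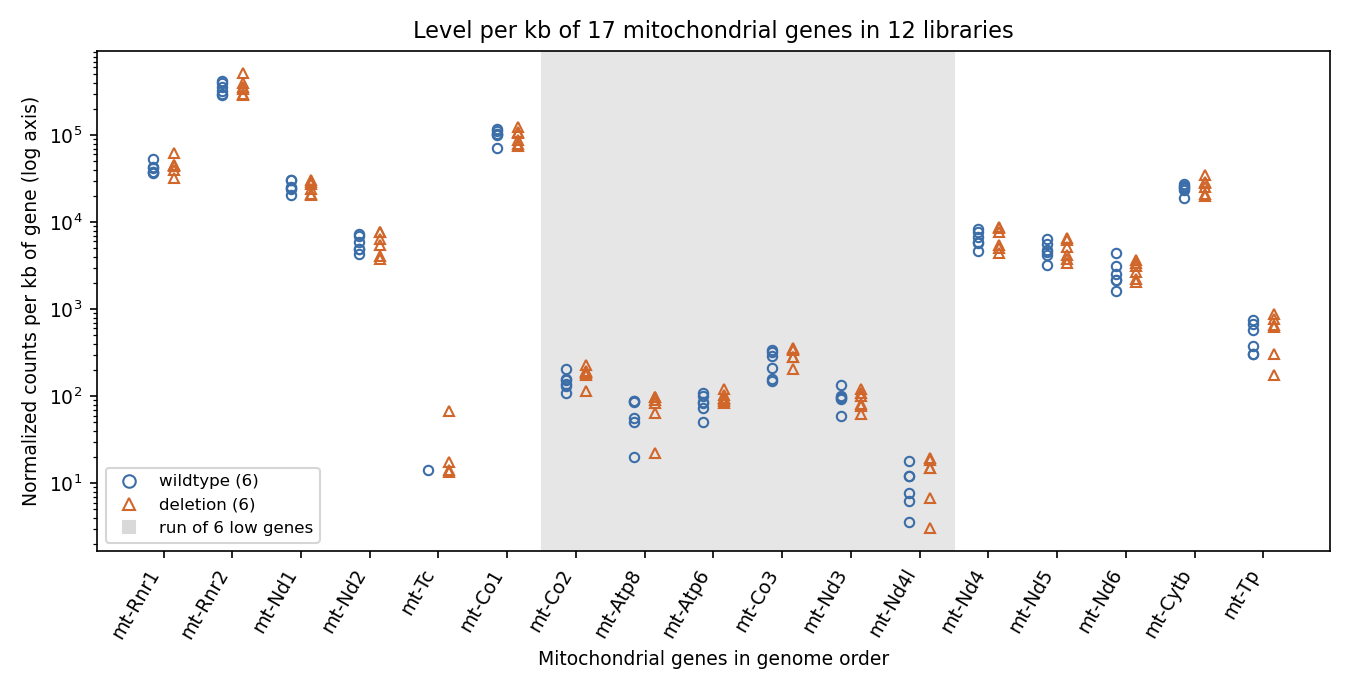
Normalised counts per kb of gene (log axis) for the 17 mitochondrial genes in genome order, with 1 point per library (open circles, 6 wildtype; triangles, 6 deletion) and the run of 6 low mRNAs shaded. The mean level falls from 99095 per kb at mt-Co1 to 165 at mt-Co2, and is 6591 at mt-Nd4 downstream of the run.

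Among complex I subunits, mt-Nd1 was the highest, at a mean of 25748 normalised counts per kb over 12 libraries. Its counts were 19450, 24097 and 29504 at the lowest, median and highest in wildtype and 19778, 24742 and 29124 in deletion libraries. The deletion libraries lay wholly inside the wildtype range. The log2 difference was -0.028 ± 0.12 (95% interval -0.29 to 0.23; limma, adjusted p = 0.965).

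The complex I subunits mt-Nd2, mt-Nd4 and mt-Nd5 formed a lower tier, at 5768, 6591 and 4865 normalised counts per kb of whole gene. For mt-Nd4, which has a nuclear copy of a part, the value was 18091.5 with all counts divided by the 502 bases outside that copy. mt-Nd2 ran from 4437 to 7495 counts in wildtype and from 3916 to 7937 in deletion libraries. mt-Nd4 ran from 6390 to 11397 and from 6054 to 12081, and mt-Nd5 from 5916 to 11806 and from 6203 to 12142. All 3 were lowest in WT6 within the wildtype group, and in the deletion group lowest in DEL5 and highest in DEL3 or DEL4, so they moved alike across libraries whatever the genotype. Their log2 differences were 0.0092 ± 0.18, 0.0080 ± 0.18 and 0.020 ± 0.18 (SE; limma, adjusted p of 0.992, 0.992 and 0.983).

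mt-Nd6, the complex I subunit encoded on the other strand, was detected at 829, 1231 and 2286 normalised counts at the lowest, median and highest in wildtype, and at 1068, 1509 and 1911 in deletion libraries. The highest wildtype value was that of WT2 and the lowest that of WT6, with the deletion libraries between them. The log2 difference was 0.14 ± 0.20 (95% interval -0.29 to 0.57; limma, adjusted p = 0.886). Its neighbour on the plus strand, mt-Cytb, was 9.16 times higher per kb. The ratio of mt-Nd6 to mt-Cytb counts was 0.0447 at the median in wildtype and 0.0481 in deletion libraries, and was highest in WT2 (0.0736), DEL3 (0.0573) and WT3 (0.0562), which are 3 of the 4 libraries rich in Gm10800. No source used here gives the strand setting of the read counting, so sense and antisense reads at mt-Nd6, mt-Tp and mt-Tc cannot be told apart.

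mt-Cytb itself, the single mitochondrial subunit of complex III, had 21721, 28558 and 31073 normalised counts in wildtype and 22881, 30564 and 39808 in deletion libraries at the lowest, median and highest. DEL4, DEL3 and DEL2 lay above every wildtype library and the other deletion libraries inside the wildtype range. The log2 difference was 0.11 ± 0.13 (95% interval -0.17 to 0.38; limma, adjusted p = 0.871).

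mt-Co1, the catalytic subunit of cytochrome c oxidase (complex IV), dominated the mRNA class. It supplied 66.7% ± 2.26 of mitochondrial mRNA signal in wildtype (SD, n = 6) and 65.0% ± 1.92 in deletion libraries (n = 6), with ranges of 64.3% to 69.6% and 62.4% to 68.0%. Its normalised counts were 109621, 158976 and 182946 in wildtype and 114987, 150168 and 191611 in deletion libraries at the lowest, median and highest. Here too the groups overlapped, with WT6 lowest and DEL4 highest. The log2 difference was -0.073 ± 0.16 (95% interval -0.41 to 0.27; limma, adjusted p = 0.928).

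The other 2 mitochondrial subunits of the same complex were recorded at far lower levels. mt-Co2, which accepts electrons from cytochrome c, had 73.7, 100.8 and 142 normalised counts in wildtype and 77.5, 127 and 156 in deletion libraries. mt-Co3 had 118, 195 and 268 in wildtype and 162, 243 and 283 in deletion libraries. The groups overlapped for both genes, and DEL2 (mt-Co2) and DEL2 and DEL4 (mt-Co3) were above every wildtype library. Log2 differences were 0.27 ± 0.17 for mt-Co2 (95% interval -0.092 to 0.62) and 0.35 ± 0.21 for mt-Co3 (-0.087 to 0.79), with limma adjusted p of 0.783 and 0.768. Without the 4 libraries rich in Gm10800 the differences were 0.080 and 0.027. WT2 and WT3 held 0.529 times the mt-Co3 level of the other 4 wildtype libraries, while DEL3 and DEL6 held 1.04 times the level of the other 4 deletion libraries. Per kb, mt-Co1 averaged 600.4 times mt-Co2.

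The ATP synthase subunits mt-Atp6 and mt-Atp8, whose genes overlap by 43 bases, were in the same low range. mt-Atp6, part of the proton channel, had 34.6, 57.2 and 74.9 normalised counts in wildtype and 56.8, 64.0 and 82.3 in deletion libraries. mt-Atp8 had 4.04, 14.6 and 17.99 in wildtype and 4.51, 17.6 and 20.2 in deletion libraries. WT2 and WT3 were the lowest wildtype libraries for both genes, and the groups overlapped. Log2 differences were 0.24 ± 0.17 for mt-Atp6 and 0.22 ± 0.40 for mt-Atp8 (limma, adjusted p of 0.798 and 0.910), and -0.029 and -0.32 without the 4 libraries rich in Gm10800. mt-Atp8 rested on 177 reads in all.

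The complex I subunits mt-Nd3 and mt-Nd4l complete the low run. mt-Nd3 had 20.7, 33.7 and 46.5 normalised counts in wildtype and 21.6, 31.5 and 42.3 in deletion libraries, so the deletion range lay inside that of wildtype. Its log2 difference was -0.071 ± 0.21 (95% interval -0.52 to 0.37; limma, adjusted p = 0.948). mt-Nd4l, with 41 reads over all libraries and a highest value of 5.71, was under the mean of 10 required for testing.

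In normalised counts, mt-Tp and mt-Tc stood far below most of the mRNAs. Per kb of gene, mt-Tp averaged 533 and mt-Tc 10.6, against 11.5 to 274 for the mRNAs of the low run. How fully RNAs of 66 and 67 bases were captured in these libraries was not tested. mt-Tp had 20.2, 32.1 and 49.8 normalised counts in wildtype and 11.7, 43.1 and 59.4 in deletion libraries at the lowest, median and highest. Deletion libraries included both the lowest value, in DEL1, and the highest 2, in DEL3 and DEL4. The log2 difference was 0.099 ± 0.37 (95% interval -0.68 to 0.88; limma, adjusted p = 0.959). mt-Tp was higher in the libraries rich in Gm10800 than in the rest of their group, 1.81 times in wildtype and 1.64 times in deletion mice. mt-Tc was covered by 8 reads, 1 in wildtype and 7 in deletion libraries, of which 4 came from DEL4. It had 0 reads in 7 libraries, where up to 3 reads (2.17 to 4.04 normalised counts, counting error only) cannot be told from 0, and it was too low to test.

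None of the 15 mitochondrial genes tested was called different between genotypes at an adjusted p of 5%, against 0.372% of all 19373 genes tested (72 genes; 66 lower in deletion mice, or 0.341%, and 6 higher, or 0.031%). None of the 15 reached an unadjusted p of 0.05 by limma, edgeR or DESeq2. Over all genes, 6.68% did so by limma. In the authors' deposited table, adjusted p-values for the same 15 genes ran from 0.905 to 0.992. The estimate was positive for 12 genes and negative for 3 (mt-Nd1, mt-Co1 and mt-Nd3), with a median of 0.095 against 0.0087 for all genes, both on the log2 scale. The 2 groups of libraries overlapped for every mitochondrial gene, whereas 0.588% of all genes tested had groups that did not overlap. The upper 95% limit of the log2 difference was 0.49 for mt-Rnr2, 0.27 for mt-Co1 and 0.38 for mt-Cytb, while for mt-Atp8, with few reads, it was 1.06.

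**Figure D3:**
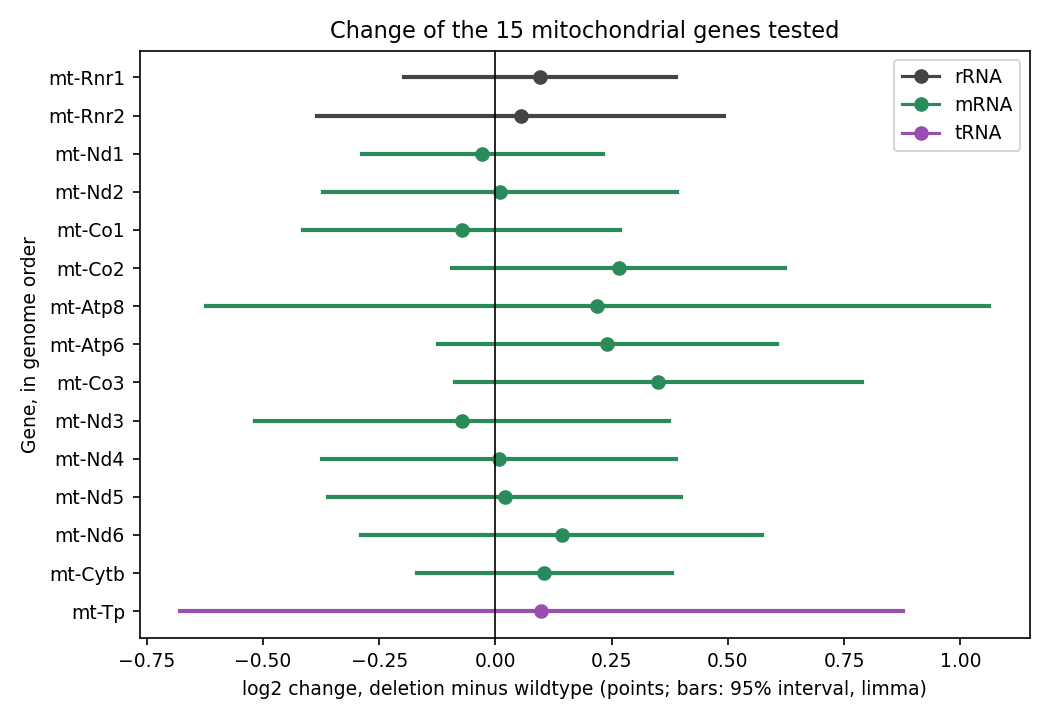
Log2 change, deletion minus wildtype, of the 15 mitochondrial genes tested, in genome order, with points for the limma estimate on log2(value + 1) and bars for its 95% interval; colours give the RNA class. Every bar crosses 0, with estimates from -0.073 for mt-Co1 to 0.35 for mt-Co3.

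The low run matched the stretch of mitochondrial sequence that is present in near-identical form on chromosome 1. BLAST of the member genes against GENCODE M21 transcripts found 7 unprocessed pseudogenes side by side on the minus strand at chr1:24611535-24616197. They match positions 6390 to 11042 of the mitochondrial genome in the same gene order. The copies of mt-Co2, mt-Atp6, mt-Co3 and mt-Nd4l had no mismatch, and that of mt-Nd3 had the 1 mismatch shown above. Gm29216 matched the last 483 bases of mt-Co1, 31.3% of that gene, with 1 mismatch, and Gm28439 matched the first 876 bases of mt-Nd4, 63.6% of it, with none. Between Gm28661 and Gm10925, the copies of mt-Co2 and mt-Atp6, lie 233 bases without an annotated transcript. The stretch between the matching bases of mt-Co2 and mt-Atp6 on the mitochondrial genome, which holds the start of mt-Atp8, is also 233 bases long. The chromosome 1 sequence of that stretch was not read here.

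Levels per kb divided by copy status, with mt-Atp8 as the exception. The 5 mRNAs with a near-identical copy of the whole gene averaged 11.5 to 274 normalised counts per kb, with a median of 94.4. The 2 with a copy of a part, mt-Co1 and mt-Nd4, averaged 99095 and 6591 over the whole gene. With all counts divided by the 1062 and 502 bases outside the chromosome 1 copy, the values were 144163 and 18091.5. Of the 6 with no near-identical annotated copy of at least 100 bases, 5 averaged 2767 to 25748 and mt-Atp8 averaged 70.5. The last 43 bases of mt-Atp8 are also the start of mt-Atp6 and so are present in Gm10925, a match too short for that limit.

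Genes whose annotated copies were all more diverged were outside the low range. mt-Cytb has the chromosome 4 copy shown above and averaged 25339 normalised counts per kb. mt-Nd6 has a copy of its whole length at 93.6% identity, Gm11408, and averaged 2767. mt-Co1 is not such a gene, since Gm29216 is near-identical to a part of it. Over its whole length it has a copy at 97.6% identity on chromosome 2, Gm13340. In 50-base windows, mt-Co2 was found in full in nuclear transcripts (100% of windows), mt-Co3 for 99.9%, mt-Atp6 for 99.5%, mt-Nd4l for 98.8% and mt-Nd3 for 98.0%. The share was 62.2% for mt-Nd4, 51.1% for mt-Co1, 8.19% for mt-Nd2, 7.61% for mt-Nd5 and 1.04% for mt-Rnr2. In windows of 75 and 100 bases it was 39.8% and 30.8% for mt-Co1, 5.71% and 3.19% for mt-Nd2 and 1.66% and 0% for mt-Nd5, and mt-Rnr2 had no match at either length. In 50-base windows the share was 0% for mt-Rnr1, mt-Nd1, mt-Nd6, mt-Cytb, mt-Atp8 and both tRNAs. How reads that match several places were counted is not given in the sources used here, and the part of such reads in the low levels was not tested.

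**Figure D4:**
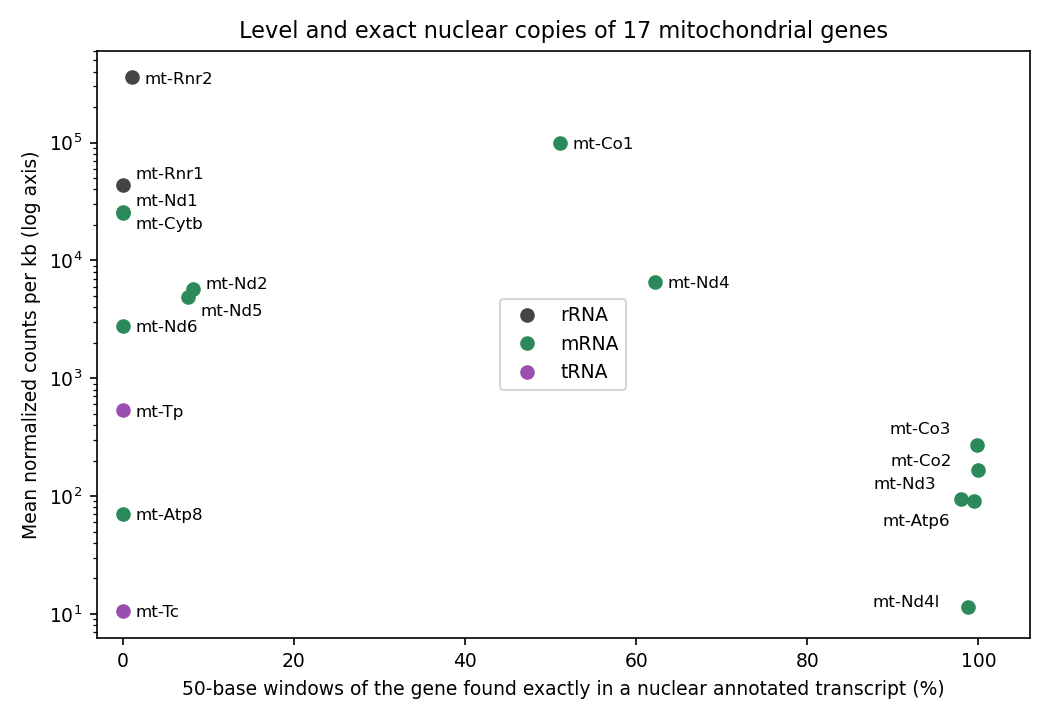
Mean normalised counts per kb over 12 libraries (log axis) against the percentage of 50-base windows of each of the 17 mitochondrial genes found exactly in a nuclear annotated transcript; colours give the RNA class. The genes at 98.0% to 100% average 11.5 to 274 per kb, whereas mt-Atp8 is at 0% with 70.5 per kb and mt-Tc at 0% with 10.6. The 43 bases that mt-Atp8 shares with mt-Atp6, and so with its copy, are shorter than a 50-base window.

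The deposited table also assigns counts to the chromosome 1 copies. Gm28437, the copy of mt-Co3, averaged 57.0 ± 21.1 normalised counts in wildtype and 68.7 ± 19.0 in deletion libraries (SD, n = 6 each). Gm28661, the copy of mt-Co2, averaged 46.3 ± 17.8 and 48.0 ± 12.5, and Gm10925, the copy of mt-Atp6, 43.9 ± 12.7 and 58.0 ± 18.1. Per kb of gene, Gm28661 stood at 69.2 and mt-Co2 at 165, Gm10925 at 75.2 and mt-Atp6 at 90.4, and Gm28437 at 80.2 and mt-Co3 at 274. Gm28438 stood at 54.7 and mt-Nd3 at 94.4, and Gm10222 at 7.38 and mt-Nd4l at 11.5. The 2 partial copies were far below their counterparts, with Gm29216 at 291 and mt-Co1 at 99095, and Gm28439 at 19.6 and mt-Nd4 at 6591. For pairs with no base different, reads of the 2 genes cannot be told apart by sequence within the copied stretch. For pairs with 1 base different, only reads that cover that base can be told apart. The split of counts between the genes of a pair is therefore uncertain. Of these 7 copies 6 were tested, none was called, and the smallest adjusted p was 0.744 (limma); none had an unadjusted p under 0.05.

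The mitochondrial genes had larger coefficients of variation between libraries than most nuclear genes of the same pathway. Over all 12 libraries the coefficient was 15.4% to 29.0% for the 7 abundant mRNAs, with a median of 24.1%, and 18.9% and 18.7% for mt-Rnr1 and mt-Rnr2. For 44 nuclear genes of oxidative phosphorylation with a mean above 1000 normalised counts the median was 9.74%, and for all 4025 genes above that mean it was 7.72%. These are descriptions over genes with shared libraries and carry no test. DEL4 was the highest library for 7 of the 15 mitochondrial genes tested. A wildtype library was highest only for mt-Nd1 and mt-Nd6 (WT2) and mt-Nd3 (WT5). The lowest was WT6 for 5 genes, WT3 for 4 and DEL5 for 3. A deletion library was lowest only for mt-Rnr1 (DEL6), mt-Rnr2, mt-Nd2 and mt-Nd4 (DEL5) and mt-Tp (DEL1). Highest values thus lay mostly in deletion libraries and lowest values mostly in wildtype libraries, which was not tested.

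Libraries rich in Gm10800 went with different groups of mitochondrial genes in wildtype. WT2 and WT3 exceeded the other 4 wildtype libraries 1.78-fold for mt-Nd6, 1.45-fold for mt-Nd5, 1.41-fold for mt-Nd2, 1.39-fold for mt-Nd4 and 1.30-fold for mt-Nd1. They held 0.443 times the level of the others for mt-Atp8, 0.655 times for mt-Atp6, 0.720 times for mt-Co2 and 0.761 times for mt-Nd3, and 0.923 times for mt-Rnr2. In the deletion group, DEL3 and DEL6 against the other 4 gave 1.17 for mt-Nd6, 1.10 for mt-Nd5, 1.19 for mt-Nd2, 1.22 for mt-Atp8 and 1.15 for mt-Atp6. For mt-Nd4l, which had few reads, WT2 and WT3 exceeded the others 1.52-fold, and the deletion means were 3.85 and 3.83 normalised counts. The mean of mt-Nd3 was low through WT3 (20.7 normalised counts), since WT2 had 35.0. mt-Co2, mt-Atp8, mt-Atp6 and mt-Co3 were thus lower in both wildtype libraries rich in Gm10800 than the mean of the other wildtype libraries, and in the deletion group the corresponding means were not lower; the difference between the groups was not tested. Without the 4 libraries the log2 difference between genotypes was 0.18 for mt-Rnr1, 0.091 for mt-Rnr2, 0.048 for mt-Nd1, 0.080 for mt-Nd2, 0.12 for mt-Nd4 and 0.15 for mt-Nd5. It was 0.34 for mt-Nd6, 0.13 for mt-Cytb, -0.0033 for mt-Co1, -0.35 for mt-Nd3 and 0.094 for mt-Tp, with an adjusted p of 0.9998 for every mitochondrial gene (limma, 4 against 4 libraries). The part of these libraries in the values was not tested beyond leaving them out.

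**Figure D5:**
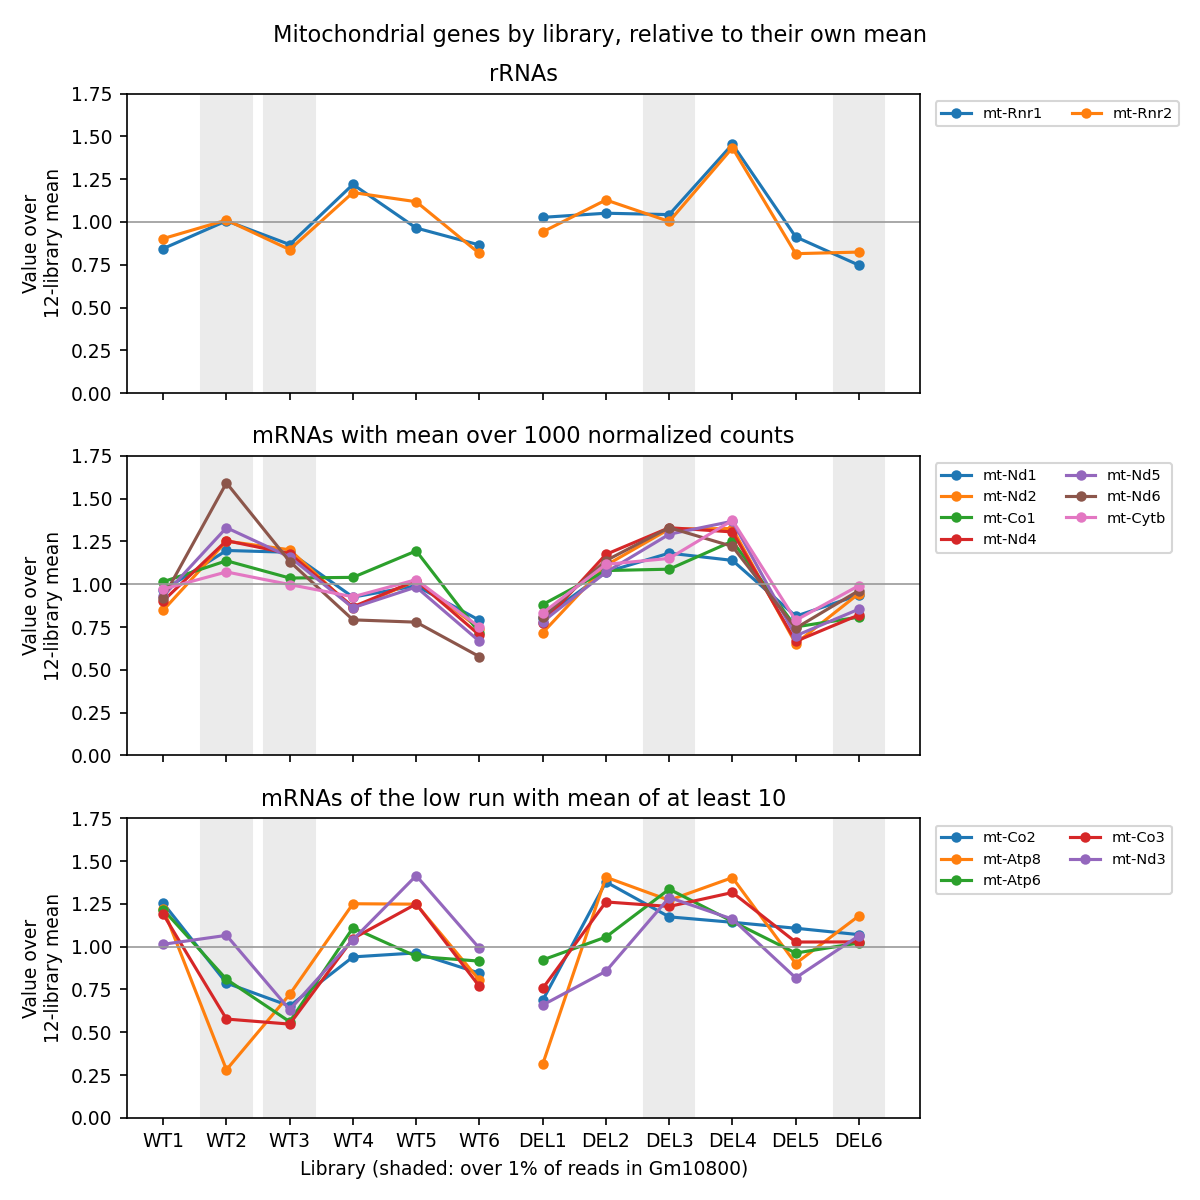
Normalised counts of mitochondrial genes in each library divided by the gene's own mean over the 12 libraries, in panels by group of genes, with the 4 libraries over 1% of reads in Gm10800 shaded. WT2 and WT3 sit low for mt-Co3 (124 and 118 normalised counts) and high for mt-Nd6 (2286 and 1627), while for mt-Nd3 WT3 is low (20.7) and WT2 is not (35.0).

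Nuclear genes that build or run mitochondria were examined in lists chosen with earlier results known, and none of their genes was called. An unadjusted p under 0.05 (limma) was reached by 3 of 77 nuclear subunits of oxidative phosphorylation, 6 of 75 mitochondrial ribosomal protein genes and 2 of 17 genes of mitochondrial DNA maintenance and transcription. The share over all genes was 6.68%. Of the 77 nuclear subunits of oxidative phosphorylation tested, 68 estimates were above 0 and 9 below; their median was 0.070 on the log2 scale, against 0.0087 for all genes. The subunits of complex I had 33 positive and 3 negative estimates (median 0.062), those of complex II 4 and 0 (0.081), of complex III 7 and 1 (0.10), of complex IV 12 and 2 (0.068) and of ATP synthase 12 and 3 (0.094). The summed level of the 78 rows ran from 108889 to 135208 normalised counts in wildtype (median 117137) and from 122447 to 130215 in deletion libraries (median 126287). The deletion libraries lay inside the wildtype range, and the lowest of them was above the wildtype median. The smallest adjusted p was 0.702, for Uqcr10, a small subunit of complex III (843 ± 121 in wildtype and 982 ± 81.4 in deletion libraries, SD, n = 6 each; limma). Atp5b, the catalytic beta subunit of ATP synthase, averaged 14895 ± 1159 and 15907 ± 962, a log2 difference of 0.096 ± 0.066 (limma, adjusted p = 0.794).

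Genes that maintain, transcribe and process mitochondrial DNA and RNA were spread around 0. Of 17 genes of maintenance and transcription, 6 had positive and 11 negative estimates (median -0.022). Tfam, which packages mitochondrial DNA and starts its transcription, averaged 585 ± 45.3 normalised counts in wildtype and 639 ± 29.7 in deletion libraries (log2 difference 0.13 ± 0.060; limma, adjusted p = 0.744). Mterf1a, a factor that binds mitochondrial DNA just downstream of the rRNA genes, averaged 104 ± 9.67 and 86.2 ± 11.5 (-0.27 ± 0.11; adjusted p = 0.734). Of 32 genes of RNA processing and stability, 17 were positive and 15 negative (median 0.0095), and of 75 mitochondrial ribosomal protein genes, 54 and 21 (median 0.036). The smallest adjusted p in the latter list was 0.694, for Mrpl43 (0.20 ± 0.073; limma). Genes of biogenesis and mass had 18 positive and 6 negative estimates (median 0.034), and stress response genes 7 of each (median 0.012), among them Chac1, a glutathione-degrading enzyme (-0.50 ± 0.23; limma, adjusted p = 0.744).

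The list of mitochondrial tRNA synthetases was evenly divided in sign, and 1 gene in it varied widely between libraries. Of 20 genes tested, which include Qrsl1, not itself a synthetase, 10 had positive and 10 negative estimates (median -0.00083). Lars2, the mitochondrial leucyl-tRNA synthetase, ran from 514 to 119124 normalised counts in wildtype and from 1440 to 149801 in deletion libraries, and its log2 difference of 2.50 ± 1.34 did not pass the test (limma, adjusted p = 0.751). It averaged 51836 over all libraries, whereas the other genes of the list averaged 133 (Sars2) to 2381 (Gars). Whether all reads counted at Lars2 came from its mRNA was not tested. The Lars2 difference was 1.52 without the 4 libraries rich in Gm10800 and 1.26 with Gm10800 as a covariate, 1.56 with edgeR and DESeq2, and ran from 1.82 to 3.40 with 1 library left out. Cars2, the synthetase that charges the cysteine tRNA shown above, averaged 198 ± 9.44 in wildtype and 179 ± 23.5 in deletion libraries (limma, adjusted p = 0.769). Among other non-coding RNAs, 9 short structured RNAs had 7 positive and 2 negative estimates (median 0.097), 16 small nucleolar RNAs 9 and 7 (median 0.015), and 3 rows related to nuclear rRNA 3 and 0 (median 0.49), with no gene called. Of the rows related to nuclear rRNA, Gm15564 ran from 26.5 to 10635 normalised counts, with a log2 difference of 2.75 ± 1.32 (limma, adjusted p = 0.744).

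Markers of cell types that could alter the mitochondrial content of the dissected tissue gave no called gene either. Of the 60 tested, 8 had an unadjusted p under 0.05 (limma), where the share over all genes was 6.68%. These included 3 of 6 markers of respiratory ciliated cells (Dnah5, Dnah9 and Ccdc39, with estimates of -0.29, -0.29 and -0.16), Obp1a of Bowman's gland (-1.35) and the progenitor gene Neurog1 (0.51). The others were Cyp1a2 of supporting cells (0.18), Lyz2 of immune cells (0.25) and Hba-a1 of erythroid cells (-0.55). All 8 were named after their values were seen. Of 10 markers of mature olfactory neurons, 9 had positive estimates (median 0.080), and their sum ran from 159387 to 197148 normalised counts in wildtype and from 172726 to 198266 in deletion libraries. All 6 markers of immature neurons had negative estimates (median -0.026). The 5 markers of supporting cells had 4 positive estimates (median 0.11), those of neuronal progenitors 5 of 6 (0.12), of horizontal basal cells 3 of 4 (0.050), of immune cells 4 of 6 (0.086) and of bone 5 of 5 (0.18). The 6 markers of respiratory ciliated cells had 5 negative estimates (median -0.11), those of erythroid cells 4 of 5 (-0.12) and of Bowman's gland 3 of 5 (-0.29), the gland sum ranging from 30566 to 106301 in wildtype and from 18478 to 123731 in deletion libraries. Of 6 markers of skeletal muscle, a tissue rich in mitochondria, 2 were high enough to test (median 0.014), and the sum of all 6 was 39.1 to 120 in wildtype and 39.2 to 77.7 in deletion libraries. The part of tissue composition in the mitochondrial levels was not tested.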

How the data were processed

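RNA from 6 wildtype and 6 deletion olfactory mucosae was sequenced. Per the submitters' processing notes the authors used STAR 2.6.0, DESeq2 and the build GRCm38.p6. No source used here gives the counter, annotation, strand setting or treatment of reads matching several places. Per the file headers, the deposited table holds normalized counts (a signal: gene reads over the library's size factor) and the authors' comparison as a log2 fold change, a test score and p-values. Values were whole multiples of 1 read for at least 99.985% of entries within 0.01 of a whole number, so reads were recovered. The number of sample columns without a matching label was 0.

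Genotypes were compared with limma 3.58.1 with a trended prior, fitted to log2(value + 1). It covered the 19373 genes averaging at least 10, with Benjamini-Hochberg adjustment over all of them at 5%. Differences are deletion minus wildtype on that scale, where changes of low genes come out too small. Each library is a separate sample per the labels and was treated as 1 animal. Alternatives were edgeR 4.0.16 and DESeq2 1.42.0 on recovered reads, other pseudocounts, filters and scalings, a replicate block, Gm10800 as covariate, and leaving out libraries. The limma step was tested on simulated data. Levels between genes are normalised counts per kb of annotated gene length. Sums over genes carry no test. Nuclear copies came from BLAST 2.17.0 of mitochondrial genes against GENCODE M21 transcripts (GRCm38), at 90% identity over at least 100 bases, with 99% called near-identical and 95% of the gene's length called whole; no genome sequence was used.

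Members and lists were chosen with earlier results of these data known. All mitochondrial genes were named. In each nuclear list the member with the highest mean and the 2 with the smallest p could be named, and copies at 95% identity or more. Gm11410, Gm11408 and Gm10800 were chosen after their values were seen. Figures used matplotlib 3.10.9, tables pandas 2.3.3 and numpy 2.4.6 under Python 3.11.15, and models R 4.3.3.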

Additional observations from a re-analysis of the deposited data

Results flagged for a closer look

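Of 52 groups of 6 libraries examined, 2 had a library whose gap to the nearest other exceeded Dixon's 95% critical share of the group's range, and chance alone gives about 1 in 20 groups. Both concern mt-Tc, the cysteine tRNA, which had 8 reads in all, so the rate of 1 in 20 cannot be applied to them. WT1 had 0.925 normalised counts, which is 1 read, against 0 in the other wildtype libraries. With 0 in all the others, any read at all meets this rule, so the flag shows nothing about WT1. DEL4 had 4.48 normalised counts, which is 4 reads, against 0 to 1.14 in the other deletion libraries.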

How the results depend on the processing

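No mitochondrial gene was called under any of 11 other settings or with any 1 of the 12 libraries left out (0 calls throughout; lowest adjusted p of a mitochondrial gene 0.492 over these fits). The count of 72 calls over all genes was 40 with a minimum mean of 50 (14407 genes tested), 67 to 91 with the count tests, and 61 to 79 with 1 library left out. The log2 difference of the class sums ranged from -0.045 to 0.12 for rRNA, -0.13 to 0.038 for mRNA and -0.038 to 0.44 for tRNA when 1 library was left out; without the 4 libraries rich in Gm10800 the mRNA value was 0.033 in place of -0.035. The sign held in every setting and left-out library for mt-Co2, mt-Co3, mt-Cytb, mt-Co1 and mt-Nd6, and not for the other 10 genes tested. Without the 4 libraries rich in Gm10800, mt-Atp6 was -0.029, mt-Atp8 -0.32, mt-Nd1 0.048 and Rn7sk 0.027. With Gm10800 as a covariate, mt-Rnr1 was -0.041, mt-Rnr2 -0.053, mt-Nd3 0.026 and mt-Nd1 0.10, while mt-Nd6 was 0.39, mt-Nd2 0.19, mt-Nd4 0.14, mt-Nd5 0.17 and mt-Tp 0.57. The cause was not tested. With 1 library left out, mt-Rnr1 ran from -0.0073 to 0.18, mt-Rnr2 from -0.048 to 0.11, mt-Nd1 from -0.096 to 0.029, mt-Nd2 from -0.079 to 0.12, mt-Nd3 from -0.20 to 0.031, mt-Nd4 from -0.085 to 0.12, mt-Nd5 from -0.087 to 0.12, mt-Atp8 from -0.054 to 0.51, mt-Tp from -0.063 to 0.39 and Rn7sk from -0.22 to 0.064. Of 18 named nuclear genes, 17 kept their sign. With all counts of the gene divided by only the bases outside the chromosome 1 copy, mt-Co1 stood at 144163 per kb in place of 99095 and mt-Nd4 at 18091.5 in place of 6591. Counts on those bases alone were not available.

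The labels number both groups 1 to 6, and nothing says that a number marks a shared litter or day. Same-numbered libraries correlated from -0.147 to 0.358 in their deviations, above 0.1 in 2 of 6 pairs, and 1 of 6 wildtype libraries correlated best with its own number. With the number as a replicate block, 71 genes were called and 0 mitochondrial genes. mt-Nd4l and mt-Tc were too low for any of these tests except that without a filter. Their 41 and 8 reads were too few to show a difference. Standard errors of mt-Co2 (0.17), mt-Atp6 (0.17) and mt-Co3 (0.21) were close to those of mt-Nd2 (0.18) and mt-Rnr2 (0.21), and that of mt-Atp8 was 0.40.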
